A study of Sus scrofa with 36 samples.

Results

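The thyroid glands of 12 pigs of the F1 cross were compared with those of 12 Large White (LW) pigs, which together make 24 of the 36 samples of the series. Members were chosen by their titles alone, so that no measured value entered the choice, and every one of the 46097 probes of the deposited table was tested. Gene expression was measured on 1-colour Agilent arrays, with 1 pig per array, in 3 breeds and at 2 temperatures. All pigs were castrated males. The groups were F1 at 24 °C, F1 at 30 °C, LW at 24 °C and LW at 30 °C, with 6 pigs in each. The other 12 pigs, of the Creole breed (CR), were in the same model and are given as the other parental breed of the cross, since F1 is described as a cross between Large White and Creole. The 30 °C group keeps its labelled temperature here, although the protocol text has 32 °C. The protocol gives the hot period as 5 days. Pigs labelled 24 °C were slaughtered before the hot period and pigs labelled 30 °C at its end, hence heat and slaughter time cannot be told apart. Each breed was represented by few litters, which the labels do not name, hence breed and family cannot be told apart and the p-values take littermates as independent pigs.

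The thyroid is built of follicles, whose cells store thyroglobulin and release the iodine-containing hormones that set the metabolic rate. Between the follicles lie the C cells, which secrete calcitonin, together with blood vessels, connective tissue and, at the edge of the gland, fat. Large White is a lean breed selected for growth, and Creole is a local tropical breed that is known to be fatter.

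Probe sequences are shown first for genes with overlapping or closely similar probes. Whether the bases that differ bear on the values was not tested. All are taken from the array files, 5′ to 3′. CRSP-2 and CRSP3 code for calcitonin receptor-stimulating peptides, relatives of calcitonin and of the peptide CGRP, and their probes cover the same stretch of transcripts that are close copies. The lines show 30 bases of each probe and the capitals mark bases that differ.
CRSP-2 probe: ttgcttgaaatacaGcttttAgcttgaaaT
CRSP3 probe: ttgcttgaaatacaActtttTgcttgaaaC
Over the 56 aligned bases of these probes 4 bases differ, so each probe may take up RNA of the other gene, and the 2 genes are read here as a pair. The next set shows CYCS, which codes for cytochrome c, and SELENOF, which codes for a selenoprotein of the endoplasmic reticulum. In each gene a probe called different between F1 and LW is set against an overlapping probe that was not, and the capitals again mark bases that differ.
CYCS probe not called: gctgtaccAtCagcacagatTtgtaaatta
CYCS probe called: gctgtaccGtGagcacagatCtgtaaatta
SELENOF probe not called: tctTccattgatcagtctcttaccgTgagg
SELENOF probe called: tctAccattgatcagtctcttaccgAgagg
The CYCS probes differ at 3 of 52 aligned bases and the SELENOF probes at 2 of 30. The last sets show overlapping probes that were both called, with the run they share in capitals. The ND1 lines carry the mitochondrial gene for a subunit of respiratory complex I, and the KIT lines the receptor for stem cell factor. The KIT probes share their whole overlap, and the ND1 probes differ at 1 base of the 44 over which they overlap and gave 0.75 and 1.49.
ND1 probe 1: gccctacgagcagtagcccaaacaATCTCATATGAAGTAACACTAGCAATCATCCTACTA
ND1 probe 3: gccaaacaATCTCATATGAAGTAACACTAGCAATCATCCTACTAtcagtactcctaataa
KIT probe 1: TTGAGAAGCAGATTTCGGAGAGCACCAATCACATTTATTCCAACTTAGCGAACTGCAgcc
KIT probe 2: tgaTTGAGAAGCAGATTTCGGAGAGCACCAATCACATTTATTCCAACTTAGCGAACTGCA

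Precision was limited by the number of arrays and by how far a probe stood above background, since arrays have no read depth. On the F1 and LW arrays the median intensity lay between 132.5 and 173 units, 74.6% to 79.7% of the probes were well above background, and 0 spots were saturated. All values below are log2 intensities, on which a difference of 1 is a doubling. Differences are F1 minus LW with temperature as a covariate, SE is from the limma model, and a probe is called when its Benjamini-Hochberg adjusted p over all 46097 probes is under 0.05.

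The first comparison asked how the thyroid of the cross differed from that of Large White over both temperatures. Genes higher in F1 included the CRSP peptides, single probes of CYCS and SELENOF, the enzymes PON3, PON1 and CES1, part of the mitochondrial probes and a set of fat cell and lipid genes with SCD, CIDEA and ADIPOQ. Genes lower in F1 included DEFB1, an antimicrobial defensin, a class I histocompatibility probe, CPNE4, KIT, DCT and IGF2. The genes of thyroid hormone synthesis had no call. In all, limma called 923 probes, which is 2.0% of those tested, 500 higher (1.08%) and 423 lower (0.918%) in F1, and 6154 (13.4%) had an unadjusted p under 0.05. The called probes with a single gene name stood for 320 genes, 175 higher and 145 lower, with 0 genes called in both directions, while 359 of the called probes have no gene name in the sources used here. The median size of a called difference was 0.46 and the smallest was 0.14. A size of 1 or more was reached by 115 probes, 86 of them higher in F1 and 29 lower.

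**Figure D1:**
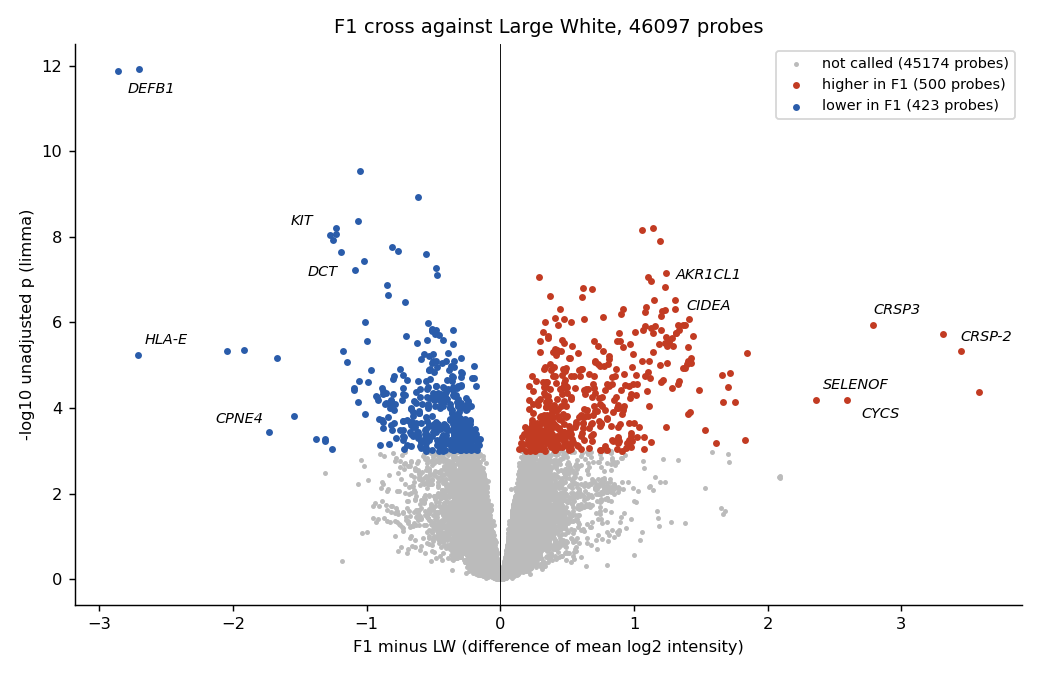
Each point is a probe, with the difference F1 minus LW on the log2 scale on the x axis and the negative log10 of the unadjusted limma p on the y axis. The 500 probes called higher in F1 are red and the 423 called lower are blue; the CRSP probes lie farthest to the right with SELENOF and CYCS, and DEFB1 lies farthest to the left with HLA-E.

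The calcitonin receptor-stimulating peptides had the largest differences among named genes higher in F1. CRSP-2 had a lowest value of 6.95, a median of 7.79 and a highest value of 9.63 in the 12 LW pigs, and 8.71, 11.44 and 12.89 in the 12 F1 pigs. The F1 and LW pigs overlapped through the lowest F1 pig alone, a 30 °C pig, and the other 11 lay above every LW pig. The difference was 3.44 (SE 0.64, limma adjusted p 0.00195), a 10.9-fold difference in intensity, and it was positive on 5 of 5 slides. All 3 probe sequences of CRSP-2 were called, with a median of 3.31, but the lowest of them had a difference of 0.56 only. CRSP3 ranged from 6.19 to 8.05 in LW, with a median of 6.80, and from 7.34 to 10.95 in F1, with a median of 9.90. Again 11 of 12 F1 pigs lay above every LW pig, and the difference was 2.79 (SE 0.48, limma adjusted p 0.000941), on 1 of the 2 sequences of the gene. CR pigs were the most variable, with CRSP-2 between 5.06 and 11.33, a mean of 8.41, and an F1 minus CR difference of 2.93 (limma adjusted p 0.00685).

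Most other genes of the C cell did not pass the test. Of the 17 measured genes of the C cell and calcitonin list, read on the probe of highest signal, the CRSP pair was called, 13 were positive and the median was 0.53, against a median of 0.0007 over the 11405 named genes. On that same basis of 1 probe per gene, 224 genes (1.96%) were called, 130 of them higher in F1 (1.14%) and 94 lower (0.824%). CALCB, a second calcitonin gene that gives a CGRP peptide, had 0.78 on its probe of highest signal (limma adjusted p 0.199) and 2.09, 2.09 and 2.09 on the other 3 probe names, with adjusted p between 0.107 and 0.112. On one of those the F1 pigs ran from 12.02 to 16.84 with a median of 14.41, and the LW pigs from 11.31 to 14.41 with a median of 12.18. Among the genes of secretory granules, CHGB, a granule protein of endocrine cells, had 0.85 (adjusted p 0.147), SCG2 0.80 (adjusted p 0.194) and the hormone-processing enzyme PCSK1 0.84 (adjusted p 0.0629), which were not called. CHGA was called on 1 of its 4 sequences, all of them positive, with a median of 0.80 and a range from 0.02, on the probe of highest signal, to 1.15. The number of called genes of this list ran from 2 to 6 over the processing alternatives. The mean level of the list lay between 10.01 and 11.43 in F1 pigs and between 9.40 and 10.41 in LW pigs. That mean includes the CRSP pair, with differences of 3.44 and 2.79, and was not made without it. It therefore does not show a shift of the other genes. In whole gland RNA fewer cells of a type and less RNA per cell cannot be told apart, which holds for every cell type named here. CALCA has no named probe in the table and is not analysed here.

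Fat cell genes were higher in F1. Of the 10 measured adipocyte markers, 6 were called, all higher in F1, and all 10 were positive with a median of 0.70. CIDEA, which coats lipid droplets, ran from 6.95 over 8.04 to 8.76 in LW (lowest, median, highest) and from 8.61 over 9.30 to 9.86 in F1. Only the 2 lowest F1 pigs fell within the LW range, and the difference was 1.31 (SE 0.21, limma adjusted p 0.000421). ADIPOQ, the fat cell hormone adiponectin, ran from 9.81 over 11.11 to 11.80 in LW and from 11.24 over 12.24 to 12.89 in F1. Of the F1 pigs, 9 lay above every LW pig, the difference was 1.25 (SE 0.23, limma adjusted p 0.00163) and 9 of 9 sequences were called. The droplet proteins PLIN1 and CIDEC differed by 1.15 and 1.02, the lipase LPL by 0.98 and the hormone-sensitive lipase LIPE by 0.42, with adjusted p of 0.000427, 0.00555, 0.0283 and 0.0389. FABP4 (0.30, adjusted p 0.357), LEP, which codes for leptin (0.03), PPARG (0.03) and PCK1 (0.07) were not called on the probe of highest signal. All 8 sequences of FABP4 were positive, and 1 of them, at 0.68, was called. The LPL call was lost without F1_30 replicate 1, LW_30 replicate 1 or LW_30 replicate 4, with adjusted p up to 0.0544, and the LIPE call without any of 12 pigs, with adjusted p up to 0.0765.

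Enzymes of fatty acid synthesis differed with them. SCD, the desaturase that makes oleic acid, ran from 10.67 over 11.88 to 12.73 in LW and from 12.10 over 13.12 to 14.19 in F1. Of the F1 pigs, 7 lay above every LW pig, and all 11 sequences were called, with 1.43 (SE 0.27, limma adjusted p 0.00236) on the probe of largest size. The difference was 1.02 at 24 °C and 1.83 at 30 °C. ELOVL6, which lengthens fatty acids, ran from 8.12 over 8.88 to 9.58 in LW and from 9.48 over 9.86 to 10.78 in F1, with 11 F1 pigs above every LW pig and a difference of 1.10 (SE 0.16, limma adjusted p 0.000176). ME1, the malic enzyme that supplies NADPH, differed by 1.10 and fatty acid synthase, FASN, by 0.44. These 4 were all the called genes among the 40 of the sterol and fatty acid list, whose median was 0.02. The cholesterol synthesis genes SQLE, MSMO1 and FDPS were not called, with -0.08, -0.29 (adjusted p 0.23) and -0.22 (adjusted p 0.34). The FASN call was lost without LW_24 replicate 3 (0.39, adjusted p 0.0506).

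Other called genes of lipid storage and energy use, chosen after their values were seen, were DGAT2, AGT and UCP3. DGAT2, the last enzyme of triglyceride synthesis, had 1.26 on 1 probe (limma adjusted p 0.00141) and a median of 0.93 over its 3 called sequences. AGT, which codes for angiotensinogen, had 1.23 (adjusted p 0.00149), and its 6 called sequences ran from 0.75 to 1.23. The mitochondrial carrier UCP3 had 1.21 (adjusted p 0.000628) on 1 probe. Of its 3 sequences 2 were called, with a median of 0.38 and a lowest of 0.03. SLC2A4, the insulin-responsive glucose carrier, stood at 0.49 (limma adjusted p 0.0413) on the only called sequence of 3, and the median of the 3 was 0.07. That call was lost without any of 15 pigs (adjusted p up to 0.0838).

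The mean level of the adipocyte list lay between 9.71 and 10.81 in the F1 pigs and between 9.06 and 10.05 in the LW pigs, with 9 of 12 F1 pigs above every LW pig, and between 9.31 and 10.82 in the CR pigs. When that level was added to the model as a covariate, a setting chosen after seeing the data, 825 probes were called, and 353 of the 923 were among them. Under it SCD had a limma adjusted p of 0.35, DGAT2 0.33, PON3 0.32 and PON1 0.45. Genes that are not fat cell markers lost the call as well. Among them were CDH16, LCN2 and NUDT9, with differences of 0.34, 0.41 and -0.80 (limma adjusted p 0.10, 0.18 and 0.15). ELOVL6 (0.042), CRSP-2 (0.0065), DEFB1 (0.00025), KIT (0.0018) and IGF2 (0.011) kept their calls. ADIPOQ (0.32), CIDEC (0.76), CIDEA (0.036) and PLIN1 (0.040) are members of the list and enter the covariate themselves. The setting therefore cannot separate these members from the list level. Since the list level itself differs between the breeds, a call lost for any gene cannot be told apart from lost precision. CIDEA and PLIN1 stayed called, with their differences reduced to 0.36 and 0.32.

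**Figure D2:**
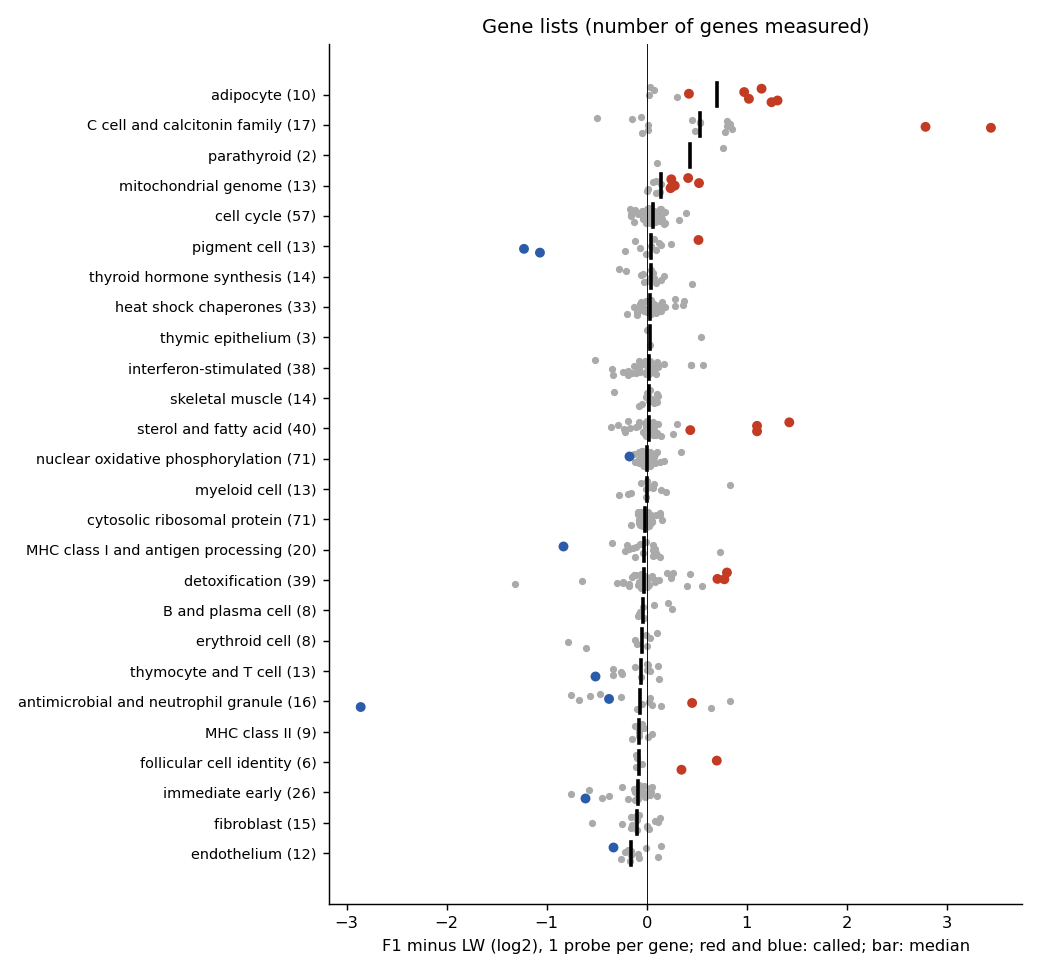
Each row is a gene list with the number of its measured genes, and each point is a gene on its probe of highest signal, with the difference F1 minus LW (log2) on the x axis. Red points were called higher in F1, blue points lower and grey points were not called, and the black bar is the median, which is 0.70 for adipocyte, 0.53 for C cell and 0.04 for thyroid hormone synthesis genes.

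Enzymes that act on foreign and reactive compounds held several of the larger differences. PON3, a lactonase, ran from 6.44 over 7.80 to 9.44 in LW and from 8.44 over 9.30 to 10.88 in F1, with 5 F1 pigs above every LW pig and a difference of 1.85 (SE 0.34, limma adjusted p 0.00201). PON1, its neighbour in the gene order and a lactonase carried on plasma lipoproteins, differed by 1.66 (adjusted p 0.00417). CES1, a carboxylesterase, differed by 1.61 on its probe of largest size (limma adjusted p 0.038). Of its 8 sequences 6 were called, with a median of 0.83 and a lowest of 0.14 over all 8. The call on the probe of largest size was lost without any of 15 of the 24 pigs, with adjusted p up to 0.0733. AKR1CL1, of the aldo-keto reductase family, ran from 8.33 over 9.62 to 10.59 in LW and from 10.21 over 10.73 to 11.56 in F1, and all 4 of its sequences were called (1.23, SE 0.19, limma adjusted p 0.000257). Its neighbours AKR1C1 and AKR1E2, named after their values were seen, differed by 0.90 and 0.89. AKR1C1 was called on 1 of its 3 sequences, all of them positive, with a median of 0.26.

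Of the 39 genes of the detoxification list, 3 were called, all higher in F1, and the median was -0.03. They were UGT1A6 (0.80), which adds glucuronic acid, the epoxide hydrolase EPHX2 (0.78) and the flavin monooxygenase FMO1 (0.71). EPHX2 was called on 1 of its 3 sequences, and its median over sequences was 0.02. FMO1 ranged from 9.78 to 11.10 in LW and from 10.90 to 11.55 in F1, with 10 F1 pigs above every LW pig. None of the cytochrome P450 genes on the list was called on its probe of highest signal; CYP2C42 had -1.31 (adjusted p 0.099), and CYP2A19 was called on another of its probes.

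CIT, which codes for citron kinase of dividing cells, was higher by 1.13 on 3 of 3 called sequences (limma adjusted p 0.00105), from 9.37 over 9.72 to 10.39 in LW and from 9.96 over 10.86 to 11.82 in F1. The 57 measured cell cycle genes held 0 calls, with a median of 0.06.

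**Figure D3:**
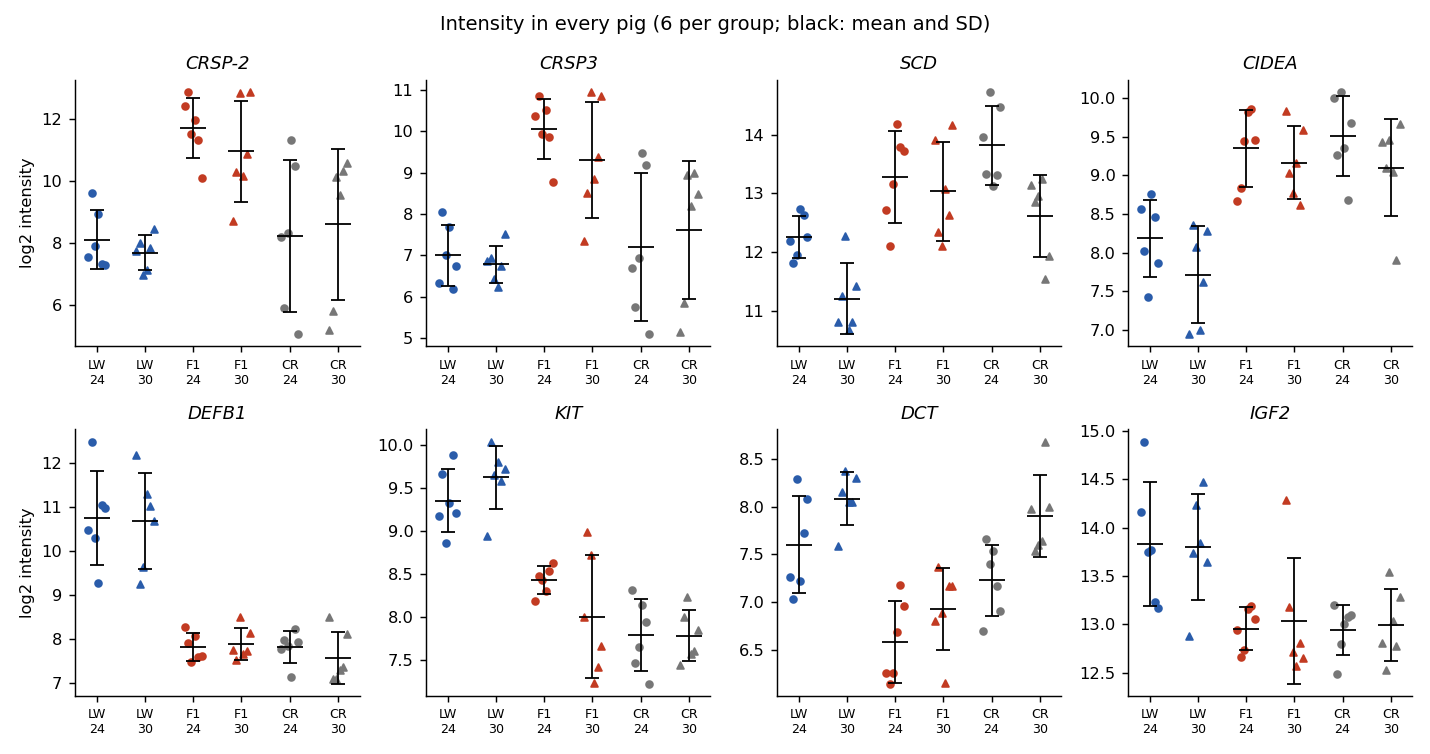
Each point is a pig and each panel is a gene, with log2 intensity on the y axis and the LW, F1 and CR groups at 24 and 30 °C on the x axis; black bars are the mean and SD of 6 pigs. CRSP-2, CRSP3, SCD and CIDEA stand higher in F1 than in LW and DEFB1, KIT, DCT and IGF2 lower, and for DEFB1 the highest F1 pig (8.49) lies under the lowest LW pig (9.24).

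DEFB1 was the gene with the largest lower value in F1. This defensin, a small peptide that epithelia release against microbes, ran from 9.24 over 10.83 to 12.48 in LW and from 7.47 over 7.74 to 8.49 in F1. The breeds did not overlap at either temperature. The difference was -2.86 (SE 0.27, limma adjusted p 3.09e-08), which is 7.26-fold lower, on 1 of its 2 sequences, with -2.93 at 24 °C and -2.79 at 30 °C. The other DEFB1 sequence gave 0.29 and was not called. The CR pigs, with a mean of 7.69, lay at the level of F1. The other genes of the 16 in the antimicrobial list did not follow it as a group: PGLYRP1, a peptidoglycan-binding protein, was called lower (-0.38, adjusted p 0.0185) and LCN2, a siderophore-binding lipocalin, higher (0.46, adjusted p 0.028), and the median was -0.07. The LCN2 call was lost without any of 5 pigs, F1_24 replicates 4 and 5, F1_30 replicate 2 and LW_30 replicates 2 and 4, with adjusted p up to 0.0554. The neutrophil genes S100A8 (-0.76, adjusted p 0.16), S100A9 (-0.47) and S100A12 (-0.57) were not called. LYZ, lysozyme, was called higher on 2 of its 4 sequences, with 0.84 (adjusted p 0.067) on the probe of highest signal. Part of the called sequence of DEFB1, which 2 probe names share, is shown.
DEFB1 probe, first stretch: cacagatatggctcagaagctgctcccttg

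A complete lack of overlap between the 12 F1 and the 12 LW pigs was found for 8 probes, 0.0174% of those measured, with 6 lower in F1 (0.0130%) and 2 higher (0.00434%). The lower ones were the 2 DEFB1 probes, a probe of KANK1 and 3 probes without a gene name. KANK1, a regulator of the actin skeleton, ran from 9.11 to 9.80 in LW and from 8.48 to 9.10 in F1 (-0.56, SE 0.08, limma adjusted p 7.24e-05), and 5 of its 6 sequences were called. The higher ones were an unnamed probe, with values of 5.91 to 6.34 in LW and 6.58 to 7.74 in F1 (1.06, limma adjusted p 4.06e-05), and 1 of the 7 sequences of ITGB1, an integrin subunit (0.61, adjusted p 0.0464, lost without any of 16 pigs with adjusted p up to 0.0882). Of the 3 unnamed lower probes, the one with -0.83 was not called (adjusted p 0.102), and the one with -1.10 lost its call with the processed intensity scaled to the 75th percentile (adjusted p 0.0637). The names in this paragraph were chosen after their values were seen.

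Pigment cell genes gave calls in both directions. KIT, the receptor that melanoblasts, mast cells and germ cells need, ran from 8.86 over 9.62 to 10.04 in LW and from 7.22 over 8.37 to 8.99 in F1. Of the F1 pigs, 11 lay below every LW pig, and the difference was -1.27 (SE 0.17, limma adjusted p 4.28e-05), with 4 of 4 sequences called. The overlapping probes shown above gave -1.27 and -1.19. The difference was -0.93 at 24 °C and -1.62 at 30 °C, and F1 lay 0.43 above CR. DCT, an enzyme of melanin synthesis, ran from 7.03 over 8.05 to 8.37 in LW and from 6.14 over 6.85 to 7.37 in F1 on its probe of largest size, with a difference of -1.09 (SE 0.16, limma adjusted p 0.000147) and 3 of 5 sequences called. F1 was also below CR for DCT, by 0.81 on the log2 scale. SLC45A2, a melanosome transporter, was higher in F1 (0.52, adjusted p 0.0395), a call lost without any of 13 pigs (adjusted p up to 0.0773). The other 10 of the 13 pigment genes were not called on their probe of highest signal, with MITF at 0.14, SOX10 at 0.07 and MC1R at 0.05, and EDNRB was called lower on 1 of its 3 sequences.

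IGF2 and IGFBP3 were lower in F1. IGF2, a fetal and muscle growth factor, ran from 12.88 over 13.76 to 14.89 in LW and from 12.57 over 12.88 to 14.29 in F1. Of the F1 pigs, 6 lay below every LW pig while a single 30 °C pig lay at 14.29. The difference was -0.82 (SE 0.18, limma adjusted p 0.00941), and 7 of 8 sequences were called. IGFBP3, the main carrier of insulin-like growth factors in blood, ran from 8.24 over 8.81 to 9.45 in LW and from 6.90 over 8.04 to 8.63 in F1, a difference of -0.88 (SE 0.19, limma adjusted p 0.00747) on 2 of 2 sequences.

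The histocompatibility genes, which present peptides to T cells and whose alleles vary between pigs, differed on part of their probes. The probe that the array files call HLA-E, a human name, ran from 9.40 over 11.08 to 11.53 in LW and from 5.70 over 8.58 to 10.52 in F1. The F1 pigs fell into separate levels, with 5 between 5.70 and 6.17 and 7 between 8.50 and 10.52, and the difference was -2.71 (SE 0.51, limma adjusted p 0.00211). SLA-6 was lower in F1 than in LW by -0.84 (limma adjusted p 0.000368) on 1 of its 2 sequences, and was the only call among the 20 genes of the class I and antigen processing list, with the shared light chain B2M at -0.12 (adjusted p 0.67). The 9 class II and the 38 interferon-stimulated genes held 0 calls on the probe of highest signal. SLA-DOA of class II was called lower on 2 of its 3 sequences, which overlap (-0.82 and -0.72), and had 0.06 on the other.

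The other lower genes of the rule included SDS, serine dehydratase, at -0.93 (limma adjusted p 0.00806) and SGK223, a pseudokinase, at -1.06 (adjusted p 0.00989). CPNE4, a copine, had -1.73 (adjusted p 0.0278) and OAZ3, a testis antizyme, -1.31 (adjusted p 0.0344). The nucleotide hydrolase NUDT9 had -1.06 (adjusted p 0.00498) on 1 sequence and -0.49 on the other, both called. SOD2, the mitochondrial superoxide dismutase, entered the rule through 1 probe, at -1.54 (adjusted p 0.0162). It was the only called sequence of 8, of which 6 were positive, and the median was 0.04. The CPNE4 call was lost without F1_24 replicate 3 or 6 or F1_30 replicate 1 or 2 (adjusted p up to 0.0539), and the OAZ3 call without any of 12 pigs (up to 0.0666). For NUDT9 9 of 12 F1 pigs, with values of 9.45 to 11.14, lay below every LW pig (10.88 to 11.83).

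The T cell, endothelial and immediate early lists each gave a single call on the probe of highest signal, lower in F1. The shares called were 7.69%, 8.33% and 3.85%, against 1.96% over all named genes. With 1 call each they are not read as a result about the lists. CD247, the signalling chain of the T cell receptor, was called at -0.51 (adjusted p 0.00826), alone of 13 T cell genes, with CD3D at -0.33 and CD3E at -0.24. TIE1, an endothelial receptor, was called at -0.33 (adjusted p 0.00779), alone of 12 endothelial genes, of which 2 were positive. DUSP1, an immediate early phosphatase, was called at -0.62 (adjusted p 0.0276), alone of 26 immediate early genes on that probe. Its call was lost without F1_24 replicate 3 or LW_24 replicate 2 (adjusted p up to 0.0513) and in a model without the temperature term (limma adjusted p 0.164). CXCL2, a neutrophil-attracting chemokine chosen after its values were seen, was lower by -0.70 (adjusted p 0.019), a call lost in a model without the temperature term (adjusted p 0.154). The lists of ribosomal proteins (71 genes), heat shock chaperones (33), fibroblast (15), myeloid (13), skeletal muscle (14), B cell (8), erythroid (8), thymic epithelium (3) and parathyroid genes (2) held 0 calls on the probe of highest signal; as counted above, limma left 6154 probes under an unadjusted p of 0.05 in this comparison.

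The genes that make thyroid hormone did not pass the test. Thyroglobulin, TG, ran from 18.32 over 18.90 to 19.07 in LW and from 18.37 over 18.97 to 19.07 in F1, near the top of the scale, and its difference was 0.04 (SE 0.11, limma adjusted p 0.936). The iodide carrier SLC5A5 had -0.21 (adjusted p 0.817), the peroxide-forming oxidase DUOX2 0.02 (adjusted p 0.965) and the thyrotropin receptor TSHR -0.28 (adjusted p 0.145). TSHR ran from 8.97 to 9.58 in LW and from 8.50 to 9.31 in F1. The 14 measured genes of the list held 0 calls, with a median of 0.04. Of the genes of follicular cell identity, the factors PAX8 (-0.11) and NKX2-1 (-0.10) were not called, whereas the adhesion protein CDH16 (limma adjusted p 0.0158) was higher in F1 by 0.35. CDH16 ran from 13.96 over 14.52 to 14.99 in LW and from 14.74 over 14.91 to 15.09 in F1, with 4 F1 pigs above every LW pig.

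Transcripts of the mitochondrial genome, which codes for subunits of the respiratory chain, were higher in F1 on part of their probes. The 13 protein genes were measured with 129 probes of different sequence, of which 120 had F1 above LW, 50 were called and all 50 calls were higher in F1. The median over the 129 probes was 0.20 and the range ran from -0.33 to 1.70. Calls were unevenly spread, with 17 of 20 probes of ND1, 8 of 13 of ND2, 6 of 10 of ATP6, 6 of 21 of CYTB, 5 of 14 of COX3 and 0 of 25 of COX1. On the probe of highest signal, 6 of the 13 genes were called. That count ran from 3 to 6 over the alternatives, and the CYTB, ND1 and ND5 calls on that probe were lost without any of 17, 18 and 20 pigs, with adjusted p up to 0.0754, 0.092 and 0.0938. The largest call, on a probe of ND2, had 12.54, 13.49 and 15.73 in LW as lowest, median and highest, and 15.35, 15.55 and 15.66 in F1 (1.66, SE 0.37, limma adjusted p 0.00974). All F1 pigs were at the upper level there, with an SD of 0.10, whereas 8 LW pigs lay at or below 13.58 and 4 at or above 15.31. CR pigs were split as well, with 10 below and 2 above. The ND1 probe 3 shown above gave the same picture, with all F1 pigs between 14.18 and 14.61 and an LW split of 8 and 4 pigs. Of the 71 nuclear genes of oxidative phosphorylation, NDUFC1 alone was called (-0.18, adjusted p 0.0339, lost without any of 10 pigs with adjusted p up to 0.0666). The NDUFC1 call was also lost in 3 settings other than leaving out a pig, with limma adjusted p up to 0.211.

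**Figure D4:**
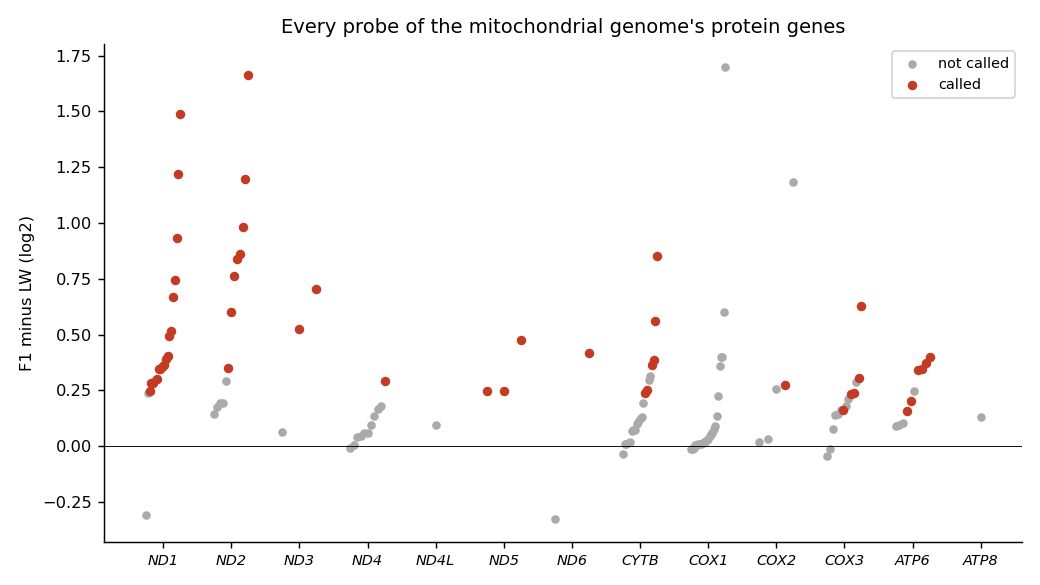
Each point is a probe of a protein gene of the mitochondrial genome, with the difference F1 minus LW (log2) on the y axis and the genes on the x axis. The 50 called probes, red, all lie above 0, and within a gene the probes spread widely, as in ND1 from -0.31 to 1.49.

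Probes of 1 gene often differed in size. Of the 221 called genes with at least 2 probe sequences, 182 had all sequences of 1 sign, 95 had at least 2 called and 39 had every sequence called, and the other 99 called genes have 1 sequence. Probes that overlap by at least 30 bases with no mismatch gave close values, with a median gap of 0.03 and at most 0.48 between their differences over 48 pairs. With 1 to 4 mismatches the median gap over 29 pairs was 0.05, and the highest gaps were 2.87 for CYCS and 2.63 for SELENOF. The called CYCS probe ran from 5.88 over 10.32 to 11.42 in LW and from 10.71 over 11.43 to 12.49 in F1 (2.59, SE 0.57, limma adjusted p 0.0091). In LW 5 pigs lay at or below 7.35 and 7 at or above 10.27, whereas every F1 and CR pig lay above 10.70, and the other 13 sequences of CYCS were not called. The called SELENOF probe ran from 6.17 to 7.67 in LW, with 7 F1 pigs at or above 10.58, 5 at or below 7.59, and all CR pigs at or above 10.37 (2.36, SE 0.52, limma adjusted p 0.00917). The other 5 SELENOF sequences were not called, and the overlapping one shown above had -0.26.

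Some called genes lay next to each other. Of the 10237 measured genes that could be placed in the gene order of the pig assembly Sscrofa11.1, 281 (2.74%) had a called probe, and 39 of these (13.9%) had a called gene as next measured neighbour. A neighbour on either side counted, so the 2.74% is not the share to set against the 13.9%. Whether neighbours were called together more often than by chance was not tested. These 39 genes formed 18 runs, 3 of them of 3 genes. AKR1CL1, AKR1C1 and AKR1E2 were all higher, CPNE4, MRPL3 and NUDT16 all lower (-1.73, -0.39 and -0.46), and METTL24, DDO and SLC22A16 of mixed direction. Among the 13 pairs in a single direction were CRSP3 with CRSP-2 and PON1 with PON3, both higher, and the guanylate cyclase subunits GUCY1A3 with GUCY1B3 (-0.48 and -0.36) and CXCL2 with BTC (-0.70 and -0.41), both lower. The MRPL3 and BTC calls were lost without any of 15 and 18 pigs, with adjusted p up to 0.0779 and 0.0941. The CRSP neighbours have closely similar probes, as shown above, which may take up each other's RNA. Probes of the PON and AKR1C neighbours were not compared between genes, so shared uptake is not known there.

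The difference between F1 and LW was then read within each temperature. All 923 called probes had the same sign at 24 and at 30 °C. They were chosen by their difference over both temperatures in these same pigs, so the shared sign follows largely from the choice. At 24 °C alone 73 probes were called (0.158%), of which 62 were among the 923, and at 30 °C alone 187 (0.406%), of which 161 were, and 10 were called at both. The count at 24 °C fell to 22 without LW_24 replicate 6 and rose to 141 without LW_24 replicate 1, and that at 30 °C fell to 94 without F1_30 replicate 6. Whether the breed difference itself changed with temperature was tested for all probes, and limma called 0 (0.00%), with 2561 (5.56%) at an unadjusted p under 0.05. The count became 1 without LW_30 replicate 2.

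Set beside the Creole pigs, the cross stood at different places for different genes. For SCD, CIDEA, ADIPOQ and PON3 the F1 minus CR differences were -0.06, -0.05, 0.04 and 0.06, and the LW minus CR differences were -1.48, -1.36, -1.21 and -1.79. For DEFB1 they were 0.16 and 3.02 and for IGF2 0.03 and 0.85. KIT and OAZ3 had an F1 mean between those of the parental breeds, with F1 minus CR at 0.43 and 1.16 (adjusted p 0.169 and 0.0539, not called) and LW minus CR at 1.71 and 2.47. On the KIT probe of highest signal F1 minus CR was 0.59 (limma adjusted p 0.0327, called) and LW minus CR 1.82. F1 lay beyond both breeds for CRSP-2 (2.93 from CR, LW minus CR -0.51), CRSP3 (2.29 and -0.50) and AKR1E2 (0.97 and 0.08), and below both for DCT (-0.81 and 0.28) and SLA-6 (-0.60 and 0.24). For IGFBP3 the values were -0.45 and 0.43, and its F1 minus CR difference was not called (adjusted p 0.203). These contrasts share pigs with the main comparison and are given side by side. Over all probes, 1558 (3.38%) were called between F1 and CR and 5940 (12.9%) between LW and CR.

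**Figure D5:**
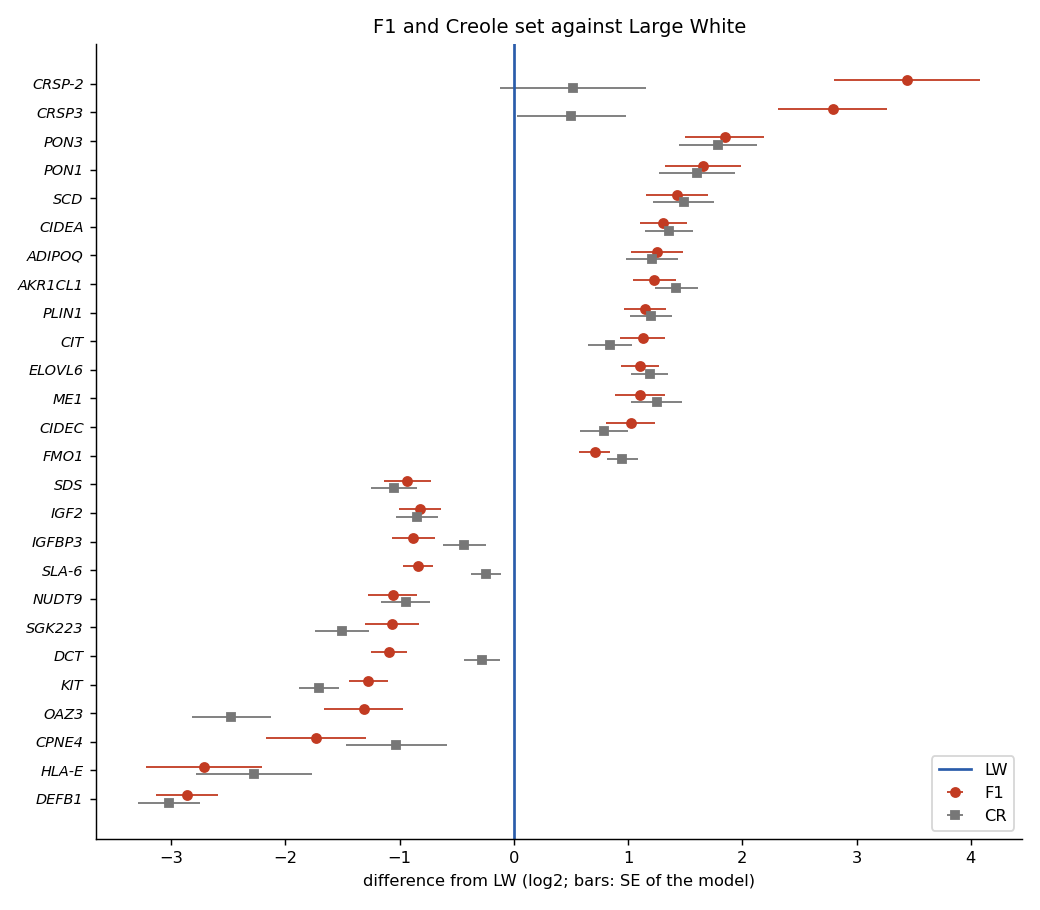
For each gene the red point is the difference F1 minus LW and the grey square the difference CR minus LW (log2), with LW at 0 and bars of 1 SE of the model. The fat genes have F1 and CR close together, as in SCD (1.43 and 1.48), whereas in CRSP-2 and CRSP3 the F1 point lies far to the right of CR.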

How the data were processed

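Thyroid RNA of 36 pigs was hybridized to 1-colour Agilent arrays read with Feature Extraction 10.10.1.1, per the submitters' processing notes, which also list limma. Per the methods, the authors took the median pixel intensity of each spot, normalized it by quantiles and deposited it as log2 values for 46097 probes, with 63 values missing. No background was subtracted, which compresses differences of dim probes. The scanner intensity columns of the deposited array files were used for detection flags, slides and alternatives, and values remade from them differed from the deposited log2 values by a median of 0.0056.

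Breed and temperature came from the labels. The model in limma 3.58.1 (R 4.3.3; lmFit, eBayes) had breed and temperature over all 36 arrays, Benjamini-Hochberg adjustment over 46097 probes and a threshold of 0.05; contrasts within a temperature came from 6 group means. It was tested on simulated data. No filter on dim probes was set.

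Names came from the array files, updated with RefSeq gene lists: 23961 probes had 1 gene name, 940 a gene number only and 21196 none. Genes named are the 10 largest called differences in each direction, the 5 genes in each direction with the largest median over at least 3 probes that share a sign with at least 2 called, fixed thyroid genes, up to 4 called genes of each list with the smallest p, and the mitochondrial genes. Others are marked in the text or appear as list members, and a few genes that the rule or the lists hold are not reported here. The comparison, its lists and tests were chosen with earlier results of these data known. Alternatives were other scalings, a filter, slide and position blocks, array weights, other samples in the fit and leaving out each of the 24 pigs. Gene lists were counted on 1 probe per gene, that of highest mean signal.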

Additional observations from a re-analysis of the deposited data

Results flagged for a closer look

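For each named probe, the highest and lowest pig of each group of 6 were examined by Dixon's ratio, the distance to the next pig divided by the range of the group, with a critical value of 0.625. Of 360 groups examined 27 (7.5%) exceeded it, in 23 genes or probes, and chance flags about 1 in 20 groups.

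LW_24 replicate 4 and F1_30 replicate 4 were flagged 4 times each. The former was lowest for SOD2 (ratio 0.712) and SGK223 (0.688) and highest for SLC45A2 (0.784) and ME1 (0.652). The latter was lowest for the mitochondrial genes COX3 (0.692), CYTB (0.642), ND1 (0.627) and ND4 (0.720). LW_30 replicate 4 was lowest for OAZ3 (0.789) and for the secretory genes CHGB (0.674) and SCG2 (0.823), where it had 10.09 against 11.77 for the next pig. LW_30 replicate 5 was lowest for HLA-E (0.643), SGK223 (0.690) and COX1 (0.868).

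Among F1 pigs, the IGF2 value of F1_30 replicate 1 was highest at 14.29 against 13.18 for the next pig (0.645), and the same pig was highest for ATP6 (0.733). CES1 was lowest in F1_24 replicate 3 (0.747), at 7.20 against 9.36. OAZ3 was lowest in F1_24 replicate 4 (0.666) and AKR1E2 in F1_24 replicate 2 (0.714). CALCB was highest in F1_24 replicate 2 (0.760), at 15.60, and lowest in F1_30 replicate 2 (0.665), at 13.52. ND5 was highest in F1_24 replicate 2 (0.638) and CXCL2 in F1_30 replicate 5 (0.657).

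Among LW pigs, LW_24 replicate 1 was lowest for CXCL2 (0.724) and for an unnamed probe that does not overlap between the breeds (0.756). ELOVL6 was lowest in LW_24 replicate 2 (0.728) and ND4L in LW_30 replicate 6 (0.701).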

How the results depend on the processing

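Over both temperatures the number of called probes, 923, lay between 797 (processed intensity scaled to the 75th percentile) and 1323 (array quality weights) for the alternatives with all 24 pigs, and between 749 and 914 when 1 pig was left out. The count at 24 °C, 73, was 41 with the F1 and LW arrays alone, 16 with slide as a fixed block, 26 with slide position as a block, 410 with array weights and 22 to 141 without 1 pig. The count at 30 °C, 187, was 99 with the position block and 94 to 202 without 1 pig. The difference between temperatures had 0 to 1 calls without 1 pig, and the number of probes without overlap, 8, lay between 8 and 15 without 1 pig and was 6 with the processed intensity scaled to the 75th percentile. The cause of these shifts was not tested.

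Of 52 called named probes, 40 were called in every alternative run, and the 12 lost in at least 1 were CES1, CPNE4, OAZ3, COX3, CYTB, NDUFC1, LCN2, SLC45A2, FASN, DUSP1, ND5 and the ND1 probe of highest signal. Settings other than leaving out a pig lost the call of 9 of them. These were the ND1 probe in 6 settings, NDUFC1 and ND5 in 3, SLC45A2 in 2, and CES1, OAZ3, COX3, CYTB and DUSP1 in 1. COX3 lost its call with the processed intensity scaled to the 75th percentile (adjusted p 0.0922). Of the genes named outside the rule, CXCL2, BTC, MRPL3, SLC2A4, LPL, LIPE, ITGB1 and an unnamed probe lost the call in at least 1 alternative. Besides the losses given with each, settings other than leaving out a pig lost some of these calls. For BTC and ITGB1 there were 5 such settings, for SLC2A4 3, and for MRPL3 and LIPE 2. The direction of no called gene turned. The differences that changed sign were all near 0: TG (-0.0083 to 0.090 without 1 pig), DUOX2 (-0.023 with array weights, -0.026 to 0.045 without 1 pig) and COX1 (-0.017 to 0.026 without 1 pig).

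No paired analysis was possible because the labels give no replicate numbers, and the numbers used here only follow the order of the records. Signal over background limits dim probes, whose differences are compressed, and the number of pigs limits the tests within 1 temperature.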
